A study of Mus musculus with 3 samples.

Results

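Cadherins, claudins, connexins and other genes of cell-cell contact were read on 3 Affymetrix mouse genome arrays of C3H10T1/2 cells, an embryonic mouse fibroblast line with mesenchymal potential. The members were chosen by gene symbol: numbered cadherins (Cdh), protocadherins (Pcdh), Fat cadherins, claudins (Cldn), connexins of the Gja, Gjb and Gjc subfamilies, tight junction scaffolds (Tjp), Ncam, Icam, Vcam1, Alcam and Epcam. They comprised 151 of the 34945 probe sets that carried 1 gene symbol, and 78 of 18193 genes. One array was labelled as C3H10T1/2 cells overexpressing Venus-Mkx, one as cells overexpressing the fluorescent protein Venus, and one as control C3H10T1/2 cells. By the methods of the study, a pMIGR retroviral vector carried the coding sequence of Venus-Mkx or of Venus alone. The virus was made in PLAT-E cells and applied in medium with puromycin, and all cells were mouse cells of the same line kept in α-minimum essential medium with serum. The study asked what the tendon transcription factor Mkx does to the lineage of these cells.

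Cells hold to one another through several kinds of contact. Classical cadherins bind the same cadherin on the neighbouring cell in the presence of calcium, and their tails hold β-catenin and p120-catenin, which lead to actin at the adherens junction. Claudins are the membrane proteins that seal and tune the tight junction, whereas connexins assemble into the channels of gap junctions and pass ions and small molecules between cells. Fibroblasts and mesenchymal cells typically carry N-cadherin, cadherin-11 and Cx43, and tendon cells are coupled along and across their rows by connexins. E-cadherin, Epcam and most claudins are known from epithelia.

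Each condition had 1 array, so no spread between replicates and no p-value can be given, and precision is limited by how few arrays there are. The values are on a log2 scale, on which 1 unit is a 2-fold difference. A gene was read by the probe set with the highest mean, and counted as measured if at least 1 array read 4.34 or more, the median of all values in the table. Readings under this floor were treated as not distinguishable from background. The floor is a setting and not a measured background level, so a reading above it need not be signal. The call of higher or lower required a difference of 2-fold or more from the Venus array and from the C3H10T1/2 array. Both differences share the same Venus-Mkx array and are not independent. Mkx itself (1437492_at) read 2.71 on the array labelled Venus-Mkx, 7.43 on the Venus array and 6.88 on the C3H10T1/2 array. This goes against the label, although the probe set may lie outside the Mkx sequence that the vector carried, which the files do not tell. The first array is therefore named by its label only. RNA was taken from bulk cultures, in which fewer cells of a kind and less RNA per cell cannot be told apart.

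Most of the members were not measured in these cells. Of the 78 genes, 27 reached the floor on at least 1 array and 51 stayed below it on all 3, a share of 34.6% measured, against 61.4% over all 18193 genes. Among the 51 were E-cadherin (Cdh1), P-cadherin (Cdh3), VE-cadherin (Cdh5), Cldn1, Cldn5, Cldn11, Gjb2, Icam1 and Tjp3, and 26 of the 51 had the same value on all 3 arrays. Cdh1 read 2.82 on the array labelled Venus-Mkx, 3.88 on the Venus array and 3.63 on the C3H10T1/2 array. Its readings were all below the floor and are given no order. Markers of other cell types were measured in part. Of 12 epithelial markers 10 were below the floor, and the other 2, Krt5 and Elf3, differed by 0.00 and 0.05 from Venus. The summed log2 value of the 12 was 42.8 on the array labelled Venus-Mkx, 41.6 on the Venus array and 42.4 on the C3H10T1/2 array. Of 9 endothelial markers 4 were measured, and Pecam1, Kdr, Tie1, Emcn and Vwf were below the floor on all arrays. Egfl7 was within 2-fold of both controls, and Tek was called higher. Cd34 read higher and Erg lower, but with readings below the floor set to the floor Cd34 was at least 1.46-fold higher than each control and Erg at least 1.38-fold below Venus, so 2-fold is not shown for these. The 9 summed to 33.3 on the array labelled Venus-Mkx, 31.2 on the Venus array and 33.0 on the C3H10T1/2 array. Of 8 leukocyte markers 2 were measured, Cd14 within 2-fold of both controls and Csf1r called higher, while Ptprc and Adgre1 were among the 6 below the floor. Csf1r, the receptor that macrophages need to survive, read 6.62 on the array labelled Venus-Mkx, 5.39 on the Venus array and 4.45 on the C3H10T1/2 array, and its 3 measured probe sets differed from Venus between 0.21 and 1.23. The 8 summed to 30.3 on the array labelled Venus-Mkx, 29.2 on the Venus array and 28.0 on the C3H10T1/2 array. Of 5 Schwann and neural markers on the array 4 were measured. Nes (nestin) was called higher, with 8.43 on the array labelled Venus-Mkx, 6.80 on the Venus array and 6.73 on the C3H10T1/2 array, and S100b was called lower, with 3.74, 6.33 and 6.49. Tubb3 (neuronal tubulin) was 1.55 above Venus and 0.90 above C3H10T1/2 on the log2 scale, and Sox10 was within 2-fold. The 5 summed to 26.7 on the array labelled Venus-Mkx, 25.9 on the Venus array and 26.9 on the C3H10T1/2 array. Each of these sums includes readings below the floor and can hide calls in opposite directions, as in Nes and S100b. The sums are no measure of how much of a cell type was present. The part of endothelial, leukocyte or neural cells in the results was not tested. All 10 mesenchymal markers were measured on all arrays, with a lowest value of 7.26. Col1a1 and Thy1 were called higher and the other 8 neither. A second probe set of Col1a1 was 0.82 above Venus on the log2 scale, short of 2-fold. Of all measured genes, 6.82% were called higher and 5.34% lower.

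**Figure D1:**
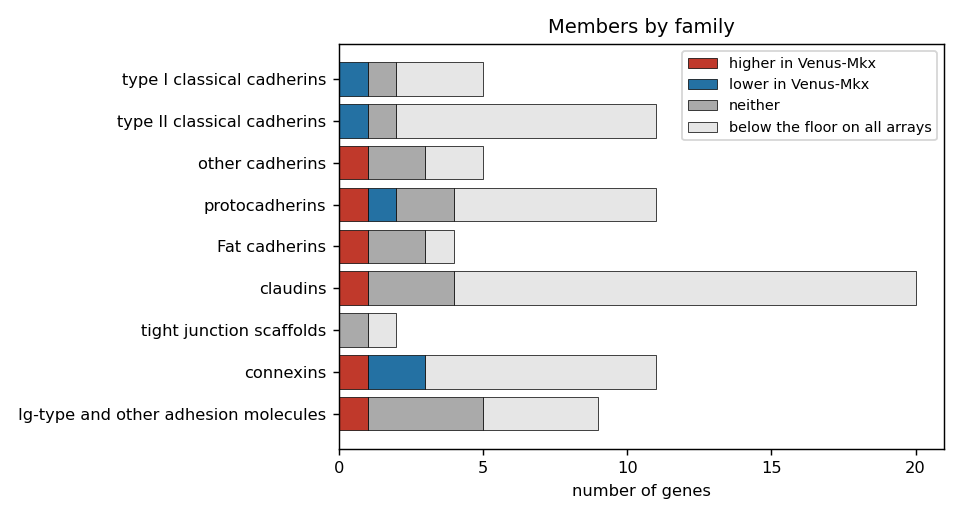
Number of member genes in each family, by call on the array labelled Venus-Mkx against both control arrays, with genes below the floor on all 3 arrays in light grey. Of 20 claudins, 16 lie below the floor, and all 3 measured connexins are called higher or lower. Over all measured genes, 6.82% are called higher and 5.34% lower.

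On the array labelled Venus-Mkx, 11 measured members were at least 2-fold apart from both controls as read, in both directions. The connexin gene Gja1, Cldn15, Cdh26, Ncam1, Fat4 and Pcdh9 were higher, and the connexin genes Gjb5 and Gjc1, N-cadherin (Cdh2), Pcdh19 and Cdh10 were lower. These 6 higher genes make 22.2% of the 27 measured members, against 6.82% of all 11169 measured genes. The 5 lower genes make 18.5% of the members, against 5.34% of all measured genes. The other 16 measured members were neither. The members were not shifted as a group. Their median log2 difference from Venus was 0.00, as it was over all measured genes, with 12 members above Venus, 11 below it and 4 equal. Those 4, Cdh15, Cldn22, Fat2 and Icam5, read between 4.39 and 4.72 on both arrays, near the floor. Equal readings there do not show unchanged expression, and the median of 0.00 falls on these genes. The median size of the difference, sign left aside, was 0.73 over the members and 0.28 over all measured genes. Between the Venus and the C3H10T1/2 array it was 0.31 over the members and 0.10 over all measured genes. The wider spread of the members was therefore not particular to the array labelled Venus-Mkx. By probe set, 13 of 53 measured ones were higher and 10 were lower, which is 24.5% and 18.9%, against 5.75% and 5.45% of all 20206 measured probe sets. With readings below the floor set to the floor, 12 member probe sets were higher and 9 lower. The shares over all probe sets were taken from values as read, so they are no measure for these 12 and 9. Probe sets of 1 gene read the same RNA and are no replicates.

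**Figure D2:**
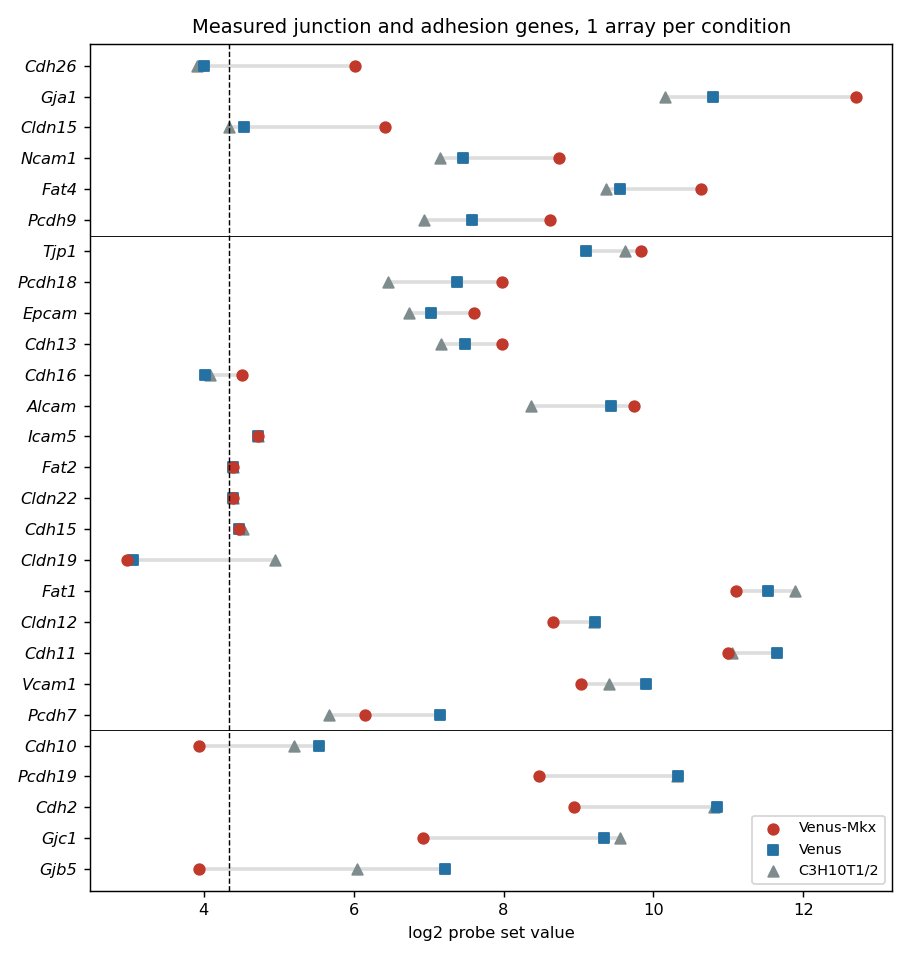
Log2 probe set value of the 27 measured members on the array labelled Venus-Mkx (red circles), the Venus array (blue squares) and the C3H10T1/2 array (grey triangles), 1 array each. The dashed line is the floor of 4.34, and solid lines part the 6 higher genes (top), the 16 called neither and the 5 lower genes (bottom). In all 6 higher genes the array labelled Venus-Mkx lies more than 1 unit above both controls.

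Among the classical cadherins, N-cadherin was lower and cadherin-11 stayed within 2-fold. Cdh2 (1418815_at), the cadherin of mesenchyme, nerve and muscle, read 8.94 on the array labelled Venus-Mkx, 10.85 on the Venus array and 10.81 on the C3H10T1/2 array. The controls were 0.04 apart, and the array labelled Venus-Mkx was 3.78-fold below Venus and 3.66-fold below C3H10T1/2. The other probe set of Cdh2, 1449244_at, lay 2.68 below Venus on the log2 scale, with values of 7.21, 9.89 and 10.08. Cdh11 (1450757_at), the cadherin of osteoblasts and synovial fibroblasts, read 10.995 on the array labelled Venus-Mkx, 11.65 on the Venus array and 11.05 on the C3H10T1/2 array. The controls were 0.60 apart, nearly as far as Venus-Mkx from Venus, and the second probe set of Cdh11 differed from Venus by -0.46. Cdh15, the cadherin of muscle satellite cells, read 4.47, 4.47 and 4.53 on the array labelled Venus-Mkx, the Venus array and the C3H10T1/2 array, just above the floor. Of the muscle markers, Myod1 was within 2-fold of both controls. Myog was called lower, with 3.76 on the array labelled Venus-Mkx, 6.15 on the Venus array and 5.53 on the C3H10T1/2 array. Cdh10, a type II cadherin known from the brain, read 3.94 on the array labelled Venus-Mkx, 5.54 on the Venus array and 5.21 on the C3H10T1/2 array. With the reading below the floor set to the floor, Cdh10 was at least 2.29-fold below Venus and at least 1.82-fold below C3H10T1/2, so a 2-fold difference from both is not shown.

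The cadherins outside the classical types were called higher or neither. Cdh26, an atypical cadherin described in human epithelia, read 6.01 on the array labelled Venus-Mkx, 3.997 on the Venus array and 3.91 on the C3H10T1/2 array. Both controls were below the floor, so it was at least 3.18-fold higher than each, and it counts as measured through the array labelled Venus-Mkx alone. Cdh13, the cadherin that is anchored by a lipid and lacks a cytoplasmic tail, read 7.99 on the array labelled Venus-Mkx, 7.48 on the Venus array and 7.16 on the C3H10T1/2 array, within 2-fold of both. Its other measured probe set, 1423551_at, read 7.05, 6.46 and 5.93 in the same order. That was 1.13 above C3H10T1/2 on the log2 scale, past 2-fold from this control only. Cdh16, the kidney cadherin, was at 4.51 on the array labelled Venus-Mkx and below the floor on both controls.

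Protocadherins and Fat cadherins, which resemble cadherins outside the cell but bind other partners inside it, were split. Pcdh19 (1455145_at), which in zebrafish forms a complex with N-cadherin, read 8.47 on the array labelled Venus-Mkx, 10.32 on the Venus array and 10.31 on the C3H10T1/2 array. It was 3.62-fold below Venus and 3.60-fold below C3H10T1/2, and all 3 of its probe sets were called lower, with differences from Venus between -2.44 and -1.86. Pcdh19 and Cdh2 were both lower on the same array, with controls close together in both. A link between the readings of these genes was not tested. Pcdh9 (1442659_at), known chiefly from neurons, went the other way, with 8.62 on the array labelled Venus-Mkx, 7.58 on the Venus array and 6.94 on the C3H10T1/2 array. It was 2.04-fold above Venus, just past the threshold, and with each array centred on its median the log2 difference was 0.99, just short of it. A second probe set, 1429861_at, read 8.23, 5.82 and 4.48 and was 2.42 above Venus on the log2 scale. Pcdh18 (1422889_at) read 7.98 on the array labelled Venus-Mkx, 7.39 on the Venus array and 6.45 on the C3H10T1/2 array, and was 2-fold apart only from C3H10T1/2. Pcdh7 (1449249_at) was highest in Venus, at 7.16, with 6.15 on the array labelled Venus-Mkx and 5.67 on the C3H10T1/2 array. The Fat genes encode giant cadherins, of which Fat4 binds Dchs1 and sets planar cell polarity. Fat4 (1460574_at) read 10.63 on the array labelled Venus-Mkx, 9.56 on the Venus array and 9.37 on the C3H10T1/2 array, 2.10-fold and 2.39-fold higher. Its second probe set differed from Venus by 0.63, and over the mean of both the difference was 0.85, less than 2-fold. Fat1, which acts at actin-rich cell edges, read 11.10 on the array labelled Venus-Mkx, 11.53 on the Venus array and 11.89 on the C3H10T1/2 array. Fat2 read an equal value of 4.39 on all arrays, near the floor.

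Of 20 claudins on the array, 4 were measured and 1 was higher, beside 6.82% of all measured genes. Cldn15, which forms cation pores in the gut, read 6.41 on the array labelled Venus-Mkx, 4.53 on the Venus array and 4.33 on the C3H10T1/2 array. It was 3.68-fold above Venus as read, where it was close to the floor, so this fold is uncertain. It was at least 4.20-fold above C3H10T1/2, where it was just below the floor. Cldn12, a claudin that lacks the common tail motif of the family, was lower by 0.55 on the log2 scale, with 8.67 on the array labelled Venus-Mkx and 9.21 on both control arrays. Cldn19 was above the floor only on the C3H10T1/2 array, with 2.97 on the array labelled Venus-Mkx, 3.06 on the Venus array and 4.95 on the C3H10T1/2 array. Cldn22 had an equal value of 4.39 on all arrays. Tjp1, which encodes the ZO scaffold that ties claudins and connexins to actin, read 9.84 on the array labelled Venus-Mkx, 9.11 on the Venus array and 9.62 on the C3H10T1/2 array. The controls were 0.51 apart for this gene, so its 0.73 above Venus compares with 0.22 above C3H10T1/2.

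The 3 connexins that were measured all passed 2-fold from both controls, 1 upwards and 2 downwards. Of all measured genes, 6.82% were higher and 5.34% lower. Gja1 (1437992_x_at) encodes Cx43, the most widespread connexin of fibroblasts, bone and tendon. It read 12.70 on the array labelled Venus-Mkx, 10.80 on the Venus array and 10.16 on the C3H10T1/2 array, 3.74-fold and 5.84-fold higher. All 6 probe sets of Gja1 read higher, and 5 of them differed from Venus by 1.79 to 2.24. The other, 1438973_x_at, read 5.21 on the array labelled Venus-Mkx and was below the floor on both controls, at least 1.82-fold higher, so 2-fold is not shown by it. Gjc1 (1449094_at) encodes Cx45, which forms channels of its own and mixed channels with Cx43. It read 6.92 on the array labelled Venus-Mkx, 9.33 on the Venus array and 9.55 on the C3H10T1/2 array, 5.33-fold and 6.19-fold lower, and its other probe set differed from Venus by -2.29. Gjb5, which encodes a connexin of skin and placenta, read 3.93 on the array labelled Venus-Mkx, 7.22 on the Venus array and 6.05 on the C3H10T1/2 array. With the reading below the floor set to the floor, it was at least 7.33-fold below Venus and at least 3.26-fold below C3H10T1/2. The other 8 connexins of the Gja, Gjb and Gjc subfamilies, Gja3, Gja4, Gja5, Gja10, Gjb1, Gjb2, Gjb6 and Gjc3, were below the floor on all arrays. Levels of different genes are not set against each other here, because probe sets differ in how strongly they bind.

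**Figure D3:**
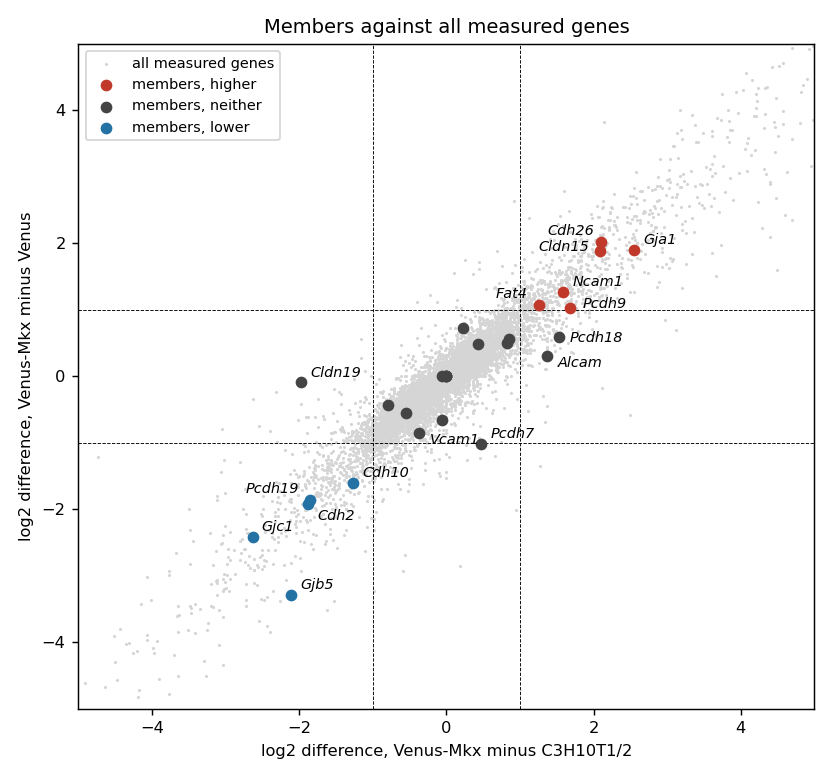
Log2 difference of the array labelled Venus-Mkx from C3H10T1/2 (horizontal axis) and from Venus (vertical axis), with the 27 measured members in colour over all measured genes in grey, of which 86 lie outside the axes. Dashed lines mark 2-fold; Gja1, Cldn15, Cdh26, Ncam1, Fat4 and Pcdh9 lie past it at the upper right, and Gjb5, Gjc1, Cdh2, Pcdh19 and Cdh10 at the lower left.

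Promoters of the members that moved are shown for Gja1 and Cldn15, which were higher, and for Gjb5 and Pcdh19, which were lower, to set genes that went up beside genes that went down. Each runs from 250 bases before to 50 bases after the annotated start of the gene in RefSeq (GRCm38.p6). Capitals mark matches, on either strand, to TGANTCA (the site of AP-1 factors), CAGGTG (an E-box), GGGCGG (a GC box), CCAAT (the CCAAT box) and TATAAA (the TATA box). TGANTCA reads as the same motif on the opposite strand and was counted once, and no matches overlapped in these 4 promoters. Of the higher members matched to a promoter, Gja1 and Cldn15 were the only ones with TGANTCA. Cdh26, Fat4 and Pcdh9, which are not shown, held none, so the display is not typical of the higher members.
Gja1, chr10:56377050-56377349, plus strand: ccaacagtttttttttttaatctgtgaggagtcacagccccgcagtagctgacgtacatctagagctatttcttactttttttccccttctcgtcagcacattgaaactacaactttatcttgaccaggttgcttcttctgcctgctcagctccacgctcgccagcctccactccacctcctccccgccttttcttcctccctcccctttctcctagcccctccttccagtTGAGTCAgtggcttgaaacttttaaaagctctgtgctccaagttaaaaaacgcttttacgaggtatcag
Cldn15, chr5:136967619-136967918, plus strand: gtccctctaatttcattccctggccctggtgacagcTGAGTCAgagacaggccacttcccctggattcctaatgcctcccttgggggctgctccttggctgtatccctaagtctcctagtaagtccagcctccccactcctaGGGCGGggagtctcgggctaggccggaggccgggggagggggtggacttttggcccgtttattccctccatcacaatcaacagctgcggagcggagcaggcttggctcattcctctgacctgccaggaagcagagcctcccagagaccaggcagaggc
Gjb5, chr4:127358115-127358414, minus strand: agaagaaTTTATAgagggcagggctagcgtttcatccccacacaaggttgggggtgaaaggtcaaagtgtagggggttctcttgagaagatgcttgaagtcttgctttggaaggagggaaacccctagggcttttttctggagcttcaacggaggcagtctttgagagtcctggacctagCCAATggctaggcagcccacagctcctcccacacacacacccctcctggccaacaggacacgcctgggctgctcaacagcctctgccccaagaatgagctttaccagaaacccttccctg
Pcdh19, chrX:133688944-133689243, minus strand: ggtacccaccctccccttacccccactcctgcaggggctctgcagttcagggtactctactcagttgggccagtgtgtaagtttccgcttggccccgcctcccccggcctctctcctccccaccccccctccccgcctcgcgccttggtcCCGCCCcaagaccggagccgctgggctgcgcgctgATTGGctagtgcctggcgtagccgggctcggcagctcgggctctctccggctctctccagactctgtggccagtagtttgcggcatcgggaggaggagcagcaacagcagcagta

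The Gja1 promoter held TGAGTCA at 19 bases before the start, and the Cldn15 promoter held the same letters at 214 bases before it. Of the 11 members called higher or lower, 8 were matched to a promoter, all but Ncam1, Cdh2 and Gjc1. A member was counted if any of its promoters held the motif, whereas the shares below count single promoters. Cldn12, Cldn19 and Pcdh9 had several. TGANTCA stood in 2 of the 5 higher members matched, in 0 of the 3 lower and in 0 of 12 measured members called neither, against 7.81% of all 32851 promoters. The E-box CAGGTG stood in none of these higher or lower members and in 4 of the 12, Alcam, Epcam, Fat1 and Pcdh7, against 20.2% of all promoters. The GC box was matched in 1 higher, 1 lower and 8 other members, against 35.7%, and the CCAAT box in 2, 2 and 5, against 37.4%. Of the higher, lower and other members matched, the TATA box stood in Gjb5 alone, on the opposite strand at 243 bases before the start, against 13.6%. A match is a run of letters and not a shown binding site. The members and motifs were chosen with earlier results of these data known, and few promoters were matched. No excess or lack of a motif is therefore read from these shares.

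Adhesion molecules of the immunoglobulin type and Epcam showed 1 call among 5 measured genes, beside 6.82% of all measured genes called higher. The call was in Ncam1, whose probe sets did not run together. Ncam1 (1426864_a_at), the neural cell adhesion molecule, read 8.73 on the array labelled Venus-Mkx, 7.46 on the Venus array and 7.15 on the C3H10T1/2 array, 2.42-fold and 3.01-fold higher. A second probe set, 1426865_a_at, read 8.39, 7.36 and 6.72 and was called higher too. In contrast, 1425126_at read 4.07 on the array labelled Venus-Mkx, 5.54 on the Venus array and 5.44 on the C3H10T1/2 array and was called lower. Of the 5 measured probe sets of Ncam1, 2 were higher and 1 was lower, and over the mean of all 7 the difference from Venus was 0.11. Vcam1 (1448162_at), the endothelial and stromal ligand of integrin α4β1, read 9.04 on the array labelled Venus-Mkx, 9.89 on the Venus array and 9.41 on the C3H10T1/2 array. A second probe set, 1415989_at, read 5.81, 6.82 and 6.46 in the same order, and the third read 6.81 on all 3 arrays. Icam1, which binds leukocyte integrins and is induced in inflammation, had the same value of 2.40 on all 3 arrays. Epcam rested on 1 of 2 probe sets. The probe set 1447899_x_at read 7.60 on the array labelled Venus-Mkx, 7.03 on the Venus array and 6.74 on the C3H10T1/2 array, while 1416579_a_at read 3.06 on all 3, and the epithelial markers were below the floor or unmoved as given above.

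**Figure D4:**
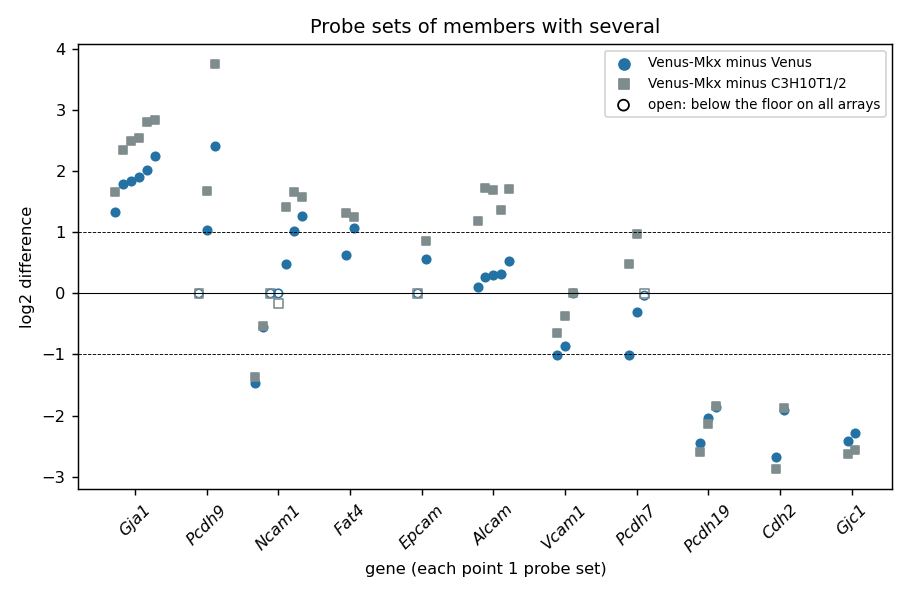
Log2 difference of the array labelled Venus-Mkx from Venus (blue circles) and from C3H10T1/2 (grey squares) for each probe set of 11 members, with probe sets below the floor on all arrays as open symbols and 2-fold as dashed lines. All probe sets of Gja1 lie above 1 as read and all of Pcdh19, Cdh2 and Gjc1 lie below -1, whereas those of Ncam1 lie on both sides of 0.

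Between the Venus and the C3H10T1/2 array, 4 members were at least 2-fold apart. Alcam, Gjb5 and Pcdh7 were higher in Venus, which is 11.1% of the measured members, against 1.49% of all measured genes. Cldn19 was lower as read, which is 3.70%, against 0.555% of all measured genes. Alcam (1426301_at), an adhesion molecule of mesenchymal progenitors and activated leukocytes, read 9.43 in Venus and 8.37 in C3H10T1/2, and the array labelled Venus-Mkx read 9.74. Of its 5 probe sets, 4 were at least 2-fold higher in Venus, with differences between 1.06 and 1.46, and the fifth was at least 1.84-fold higher, with C3H10T1/2 below the floor. All 5 read higher on the array labelled Venus-Mkx and on the Venus array than on the C3H10T1/2 array. Gjb5 was 1.17 above C3H10T1/2 in Venus on the log2 scale, the opposite side from its reading on the array labelled Venus-Mkx. Pcdh7 was 1.49 above C3H10T1/2 in Venus, and its second measured probe set 1.26 above. Cldn19 was below the floor in Venus and at least 1.52-fold lower there, so 2-fold is not shown. With 1 array each, a difference between cultures and an effect of the vector cannot be told apart.

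The proteins that bind the members inside and beside the junction were read from lists of partners. In the adherens junction list, 12 of 17 genes were measured, with 1 higher and 5 lower, beside 6.82% and 5.34% of all measured genes. Ctnnd1, which encodes p120-catenin, the stabilizer of cadherins at the surface, read 6.70 on the array labelled Venus-Mkx, 9.04 on the Venus array and 9.63 on the C3H10T1/2 array. Its 3 measured probe sets differed from Venus between -2.34 and -0.91. Vcl (vinculin), which couples the junction to actin under tension, had a log2 difference of -1.64 from the Venus array and -1.51 from the C3H10T1/2 array, and Ctnnal1 (α-catulin) one of -1.80 and -1.84. A second probe set of each fell short of 2-fold, with -0.98 from Venus for Vcl and -0.95 for Ctnnal1. Actn4, an actin crosslinker, differed by -1.12 and -1.14. β-catenin (Ctnnb1) differed from Venus by -0.07 and α-catenin (Ctnna1) by -0.72, neither 2-fold. Nectins are calcium-independent adhesion molecules of the same junction. Nectin2 was higher, by 1.47 and 1.72, and Nectin3 lower, by -1.27 and -1.09, against Venus and C3H10T1/2.

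Tight junction partners were called higher where they were called. Of 20 on the array 13 were measured, 3 were higher and 10 were neither, with 6.82% of all measured genes called higher. Cxadr, which encodes the coxsackievirus and adenovirus receptor, an adhesion molecule of the junction, read 9.36 on the array labelled Venus-Mkx, 7.29 on the Venus array and 7.53 on the C3H10T1/2 array. Its 4 measured probe sets differed from Venus between 1.23 and 2.06. Cgnl1 (paracingulin) was 1.91 above Venus and 2.14 above C3H10T1/2, although a second probe set differed from Venus by 0.11. Patj, a scaffold of cell polarity, was 2.19-fold above Venus and at least 2.32-fold above C3H10T1/2, where it was below the floor. Prkci, a kinase of the polarity complex, was neither, with a log2 difference of -0.94 from Venus. Occludin (Ocln) was below the floor on all arrays, as were tricellulin (Marveld2) and cingulin (Cgn). Among 13 desmosome genes on the array, 3 were measured, all plakophilins, 1 of them lower against 5.34% of all measured genes, and the desmosomal cadherins and desmoplakin (Dsp) were below the floor. Pkp1 read 4.17 on the array labelled Venus-Mkx, 6.16 on the Venus array and 6.93 on the C3H10T1/2 array and was called lower, at least 3.53-fold below Venus and at least 6.03-fold below C3H10T1/2. Pkp2 read 5.58, 6.77 and 4.92 in that order, and Pkp4 8.89, 9.38 and 9.54. Panx1, which encodes a channel protein related in fold to connexins, read 4.65 on the array labelled Venus-Mkx, 7.13 on the Venus array and 7.45 on the C3H10T1/2 array. It was the only gene called lower among 6 further gap junction and pannexin genes, of which 2 were measured, against 5.34% of all measured genes. The other, Panx3, read 3.58 on the array labelled Venus-Mkx, 3.91 on the Venus array and 5.32 on the C3H10T1/2 array. Of 7 integrin genes whose products bind Icam and Vcam proteins, 2 were measured, Itgb1 and Itgb7, and both were neither.

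**Figure D5:**
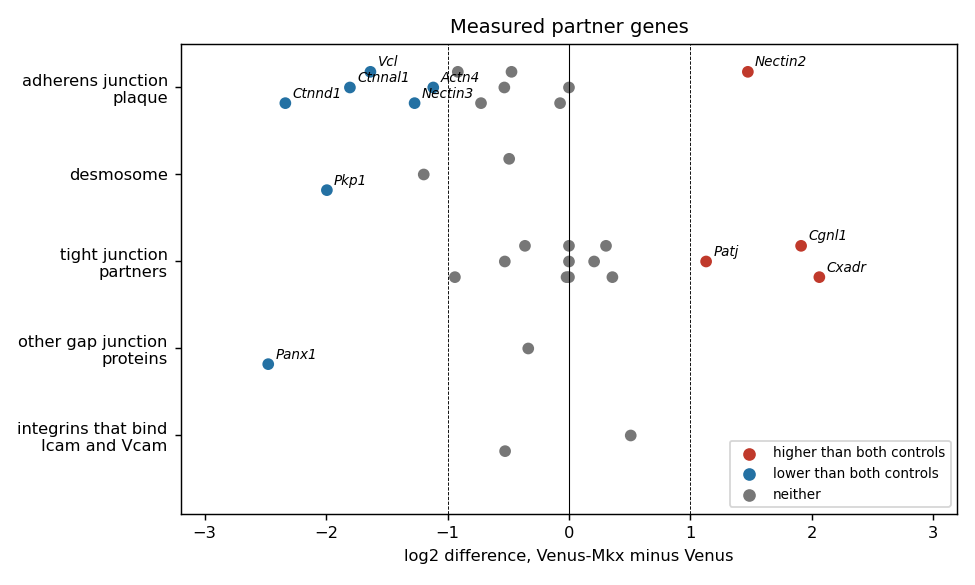
Log2 difference of the array labelled Venus-Mkx from Venus for the measured genes of 5 partner lists, 1 point per gene, coloured by call against both controls. Called genes of the adherens junction plaque lie below -1 apart from Nectin2, and called tight junction partners lie above 1.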

How the data were processed

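Affymetrix whole-genome mouse arrays were read for C3H10T1/2 cells with Venus-Mkx, with Venus and with no vector, 1 array each. The authors deposited log2 probe set values. The submitters' processing notes name RMA, while the methods of the study name MAS 5.0, and no version is given in the sources used here. Values ran from 1.44 to 14.00, a log2 range, and 24.6% of the 45101 probe sets were equal on all 3 arrays. They were used without further normalization.

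After 64 control probe sets were left out, 34945 carried 1 gene symbol, 932 several and 9160 none in the platform annotation. For genes with several probe sets, the one of highest mean was taken, the floor was the median of all values, and calls needed a 2-fold difference from both controls. Where a level lay below the floor, an "at least" fold was computed with that level set to the floor. No test was run, since 1 array per condition gives no replicate error. The calling rule was tested on simulated data, which gives no error for these arrays. Alternatives covered the floor, the probe sets, the scale, the control and the fold. The text names every member called, members that define a junction or cell type, Mkx, and the up to 4 measured genes of each partner list with the largest difference from the nearer control. Other genes of these lists, Nectin3, Actn4, Ctnnb1, Ctnna1 and Ocln among them, and the marker genes were named with their values in view. The members and lists, and the motifs searched, were chosen with earlier results of these data known. Promoters and their gene symbols came from RefSeq (GRCm38.p6), and probe sets carried the symbols of the platform annotation. Python 3.11.15, NumPy 2.4.6, pandas 2.3.3 and matplotlib 3.10.9 were used.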

Additional observations from a re-analysis of the deposited data

How the results depend on the processing

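With 1 array per condition, no replicate could be left out and no paired analysis was possible because each condition had 1 array. No called member changed sign under any alternative run, and of 66 values of the 11 called members under settings other than the floor, which cannot move a difference, 59 moved by less than 0.34, the SD of log2 differences between the control arrays. With no floor, 78 members counted as measured, and no further call was made. With the floor at the 75th percentile, Cdh26, Cldn15 and Cdh10 were not called and 0 members were lower in Venus. At 3-fold, 3 members were higher on the array labelled Venus-Mkx (Gja1, Cldn15 and Cdh26) and 0 higher in Venus, while at 1.5-fold 7 were higher in Venus. Shares of all measured genes are given here only for the 2-fold rule with the median floor. The counts under other settings therefore cannot be set against them. Over the mean of all probe sets, Fat4, Ncam1 and Cdh10 were not called, and Cdh10 differed from Venus by -0.43. Without probe sets marked _x_at and _s_at, Epcam was below the floor. With the median as the floor, no difference can be shown where both levels lie below it, as in 51 of the 78 members. Other counts were within 1.5 times those of the report.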

Other observations

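Protocadherins of the clustered kind fall outside the numbered members and were looked at after their values were seen. The probe set 1420798_s_at, which the annotation pairs with 14 α-protocadherin genes, read 5.75 on the array labelled Venus-Mkx, 3.06 on the Venus array and 3.16 on the C3H10T1/2 array. Both controls were below the floor for it. A second one, 1424341_s_at, read 4.41, 2.26 and 2.17. It was only just above the floor of 4.34 on the array labelled Venus-Mkx and below it on both controls. It therefore does not show a 2-fold difference. The other 4 probe sets shared by these genes were below the floor on all arrays. Among 22 further clustered protocadherin genes, 10 were measured, and Pcdhb9 and Pcdhb12 were called higher, beside 6.82% of all measured genes. Pcdhb9 read 6.45 on the array labelled Venus-Mkx, 4.40 on the Venus array and 5.05 on the C3H10T1/2 array, and Pcdhb12 read 5.50, 3.92 and 3.80. Pcdhb12 was below the floor on both controls and counts as measured through the array labelled Venus-Mkx alone. The other 8 were neither, so no direction is given for the cluster.

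Fjx1, whose product modifies Fat and Dchs cadherins in the Golgi, read 5.65 on the array labelled Venus-Mkx, 4.61 on the Venus array and 4.65 on the C3H10T1/2 array, at the 2-fold threshold. Dchs1, which encodes the cadherin that Fat4 binds, was below the floor on all 3 arrays. L1cam, a neural adhesion molecule of the immunoglobulin type, read 7.29 on the array labelled Venus-Mkx, 7.90 on the Venus array and 9.17 on the C3H10T1/2 array, and its difference between Venus and C3H10T1/2 was -1.27.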
